A study of Mus musculus with 7 samples.

Results

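The 10 genes described here encode ligands, receptors and junction proteins of blood vessel cells: the growth factors Vegfa, Vegfb, Angpt1 and Angpt2, the receptors Flt1, Kdr, Tek and Tie1, and the endothelial surface proteins Pecam1 and Cdh5. They were chosen by symbol. All 17 probe sets whose platform annotation names one of these genes alone were taken, and the one brightest on average over the arrays leads for its gene. They are 10 of 18193 genes measured with a single symbol, and the lead probe sets of all 10 lay above the background level.

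Each of 7 Affymetrix arrays of the mouse genome holds RNA of the plantaris, a calf muscle, from Pax7-DTA mice 4 months old. The mice of every group carry Pax7-CreER and Rosa26-DTA. The Cre enzyme is driven by Pax7, the transcription factor of satellite cells (muscle stem cells), and tamoxifen activates it to switch on a toxin in those cells. Overload lasted 1 week and was made by synergist ablation, in which its neighbouring calf muscles are cut away, while the other mice had sham surgery. The groups were tamoxifen overload (3 arrays, of 2 males and 1 female), vehicle overload (2 arrays, of 1 female and 1 male), tamoxifen sham (1 male array) and vehicle sham (1 male array). The titles read as single mice, while the design text speaks of a pooled sample from 11 animals, so the number of animals behind an array is uncertain.

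Vascular endothelial growth factor A (Vegfa) is the main signal for the growth of new blood vessels, and in muscle it is made largely by the fibres. It binds Kdr, the receptor that drives endothelial division and migration, and Flt1, which binds it more tightly and also exists as a soluble form that captures ligand. Vegfb binds Flt1 and not Kdr. Angiopoietin 1 (Angpt1) activates the receptor Tek and stabilises vessels, while angiopoietin 2 (Angpt2), released by endothelial cells, mostly opposes it and loosens vessels before they sprout. Tie1 is a relative of Tek that modulates its signal. Pecam1 and Cdh5 (VE-cadherin) hold endothelial cells together at their junctions.

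The 250 bases before the transcription start of Vegfa, Vegfb and Tie1 are shown because, of the 6 genes with a promoter in the table used, these 3 have windows that lie wholly outside the gene. Vegfa and Vegfb were called lower in overloaded muscle, as were Flt1 and Kdr, whose windows are not shown, and Tie1 was not called. The sequences are those of RefSeq on GRCm38.p6, 5′ to 3′ on the minus strand, on which all 3 genes lie. Vegfa spans chr17:46032378-46032627, Vegfb chr19:6987652-6987901 and Tie1 chr4:118489850-118490099. Capitals mark the hypoxia response element core (ACGTG or GCGTG), the GC box (GGGCGG) and the ETS site core (CGGAA or AGGAAG), each searched on both strands, with adjoining matches run together.
Vegfa: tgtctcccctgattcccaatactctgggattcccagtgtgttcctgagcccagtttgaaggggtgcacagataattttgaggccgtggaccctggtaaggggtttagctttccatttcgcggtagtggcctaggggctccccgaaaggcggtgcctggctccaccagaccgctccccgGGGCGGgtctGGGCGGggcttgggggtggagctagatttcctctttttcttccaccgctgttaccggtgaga
Vegfb: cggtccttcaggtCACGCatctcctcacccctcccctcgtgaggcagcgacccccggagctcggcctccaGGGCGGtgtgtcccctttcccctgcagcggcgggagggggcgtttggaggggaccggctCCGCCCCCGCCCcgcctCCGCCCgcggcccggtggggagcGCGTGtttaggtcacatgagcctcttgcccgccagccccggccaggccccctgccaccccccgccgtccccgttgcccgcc
Tie1: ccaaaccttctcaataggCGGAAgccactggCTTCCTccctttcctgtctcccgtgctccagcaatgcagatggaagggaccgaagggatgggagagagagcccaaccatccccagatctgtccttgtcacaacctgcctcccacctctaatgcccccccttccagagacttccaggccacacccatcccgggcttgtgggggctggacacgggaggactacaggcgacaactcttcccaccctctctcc
Of 19827 windows of the same length before the outermost start of a gene, 34.9% hold the hypoxia response element core, 26.8% the GC box and 44.9% the ETS core. The Vegfa window holds 2 GC boxes and no hypoxia core or ETS core. The Vegfb window holds 4 GC boxes and 2 hypoxia cores. The Tie1 window holds 2 ETS cores and neither of the other motifs. The half-site of oestrogen-related receptors (AAGGTCA), which 4.3% of windows hold, is in none of the 3. These matches describe the letters of the windows, and no binding was measured. Sequence outside the windows was not searched, so a motif absent here may lie farther from the start.

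The arrays had median signals of 88.2 to 128, and their number limits the precision of every value. Ckm, the muscle creatine kinase, read 24310 to 33943 on every array, as in skeletal muscle, and all 22 other endothelial markers listed lay above background. These markers do not tell the plantaris from other muscles. Pax7 read 57.9, 9.97 and 120 on the tamoxifen overload arrays and 274 and 349 on the vehicle overload arrays, against 41.2 with tamoxifen sham and 92.8 with vehicle sham. The difference between the overload groups did not pass (-2.67 ± 0.81 log2, SE; adjusted p = 0.399). Among the overload arrays the male vehicle array (replicate 2) stood apart in vascular genes. It was the lowest of the 5 for 7 of the 10 genes and for 21 of the 22 other endothelial markers, against 24.6% of all genes. It is also the only male array of vehicle overload, so its values enter the fitted sex term. That term (female minus male, log2) ran from -0.06 (Vegfb) to 0.54 (Cdh5) over the 10 genes. Several results that rest on this array are given with and without it, and without it vehicle overload is 1 female array.

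Overload against sham was the first comparison, averaged over both treatments, with 5 overload and 2 sham arrays. Of the 10 genes 4 fell (Vegfa, Vegfb, Flt1 and Kdr), 1 rose (Angpt2) and 5 did not pass the test. Over all genes 8.16% were called lower and 14.7% higher, 22.9% in all. A gene is called where its p from limma, adjusted by the Benjamini-Hochberg method across the 18193 genes, is below 0.05, and differences are of log2(signal + 1). On the lead probe sets every overload array lay below both sham arrays for 4 of the 10 genes and above both for 2, where 18.3% and 23.1% of all genes did so. These calls draw on an estimate of the spread that borrows across genes of like intensity. When limma was run without this trend, 0 of the 10 and 0 of 18193 genes passed (Vegfa had an adjusted p of 0.0574 and Kdr of 0.136), where 6292 genes were under 0.05 unadjusted in the fit reported.

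Vegfa changed most among the 10. Its lead probe set (1420909_at) read 1175, 949 and 1090 on the tamoxifen overload arrays (replicates 1 to 3) and 1494 and 1221 on the vehicle overload arrays, against 5599 with tamoxifen sham and 3458 with vehicle sham. All overload arrays were low and the groups did not overlap. Vegfa was 3.83-fold lower in overloaded muscle, a log2 difference of -1.94 ± 0.15 (SE; adjusted p = 0.000248). Its other probe set (1451959_a_at) read 374 to 664 in overload and 833 and 1097 in the sham muscles, again without overlap, and fell by less (-1.08 ± 0.25, adjusted p = 0.0223 when every probe set was tested). The mean of both probe sets gave -1.51. In a whole muscle, fewer cells of a type and less RNA per cell cannot be told apart.

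Vegfb, the second ligand, has 1 probe set. It read 1467, 1025 and 1063 with tamoxifen overload and 1334 and 1213 with vehicle overload, against 2659 with tamoxifen sham and 2633 with vehicle sham. The sham arrays were nearly equal, and all overload arrays lay well below them. Vegfb was 2.13-fold lower (-1.09 ± 0.19, adjusted p = 0.00519). The call was narrowly lost without vehicle overload replicate 2 (-0.95, adjusted p = 0.0533) or without the tamoxifen sham array (-1.02, adjusted p = 0.0551).

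Flt1, the receptor that both of these ligands bind, fell as well. Its lead probe set (1419300_at) read 442, 303 and 394 with tamoxifen overload and 542 and 435 with vehicle overload, against 976 with tamoxifen sham and 766 with vehicle sham. No overload array reached the sham level, and Flt1 was 2.14-fold lower (-1.10 ± 0.21, adjusted p = 0.00805). Flt1 is measured by 4 probe sets. On the other 3 overload lay below sham without overlap too, and all 3 passed when every probe set was tested, with log2 differences of -1.12, -1.06 and -0.80. The lead probe set lost its call without vehicle overload replicate 2 (-1.01, adjusted p = 0.0649) or without the tamoxifen sham array (-0.75, adjusted p = 0.178).

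Kdr, the receptor that carries most of the Vegfa signal, fell by less. It read 463, 511 and 561 with tamoxifen overload and 546 and 325 with vehicle overload, against 729 with tamoxifen sham and 647 with vehicle sham. The lowest value was that of vehicle overload replicate 2, but the other overload arrays also lay below both sham arrays. Kdr was 1.68-fold lower (-0.75 ± 0.19, adjusted p = 0.0257). The call was lost without vehicle overload replicate 2 (-0.52, adjusted p = 0.243), without either sham array (-0.66, adjusted p = 0.119, and -0.84, adjusted p = 0.106) and without the term for sex (-0.57, adjusted p = 0.0866).

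Angpt2 was the gene that rose. Its lead probe set (1448831_at) read 260, 349 and 258 with tamoxifen overload and 263 and 235 with vehicle overload, against 132 with tamoxifen sham and 130 with vehicle sham. Every overload array was high and the groups were well apart. Angpt2 was 2.07-fold higher (1.05 ± 0.26, adjusted p = 0.0217). Its second probe set (1459636_at) lay below the background level of 54.2 on all 7 arrays (1.91 to 29.1) and carries no measurable change. The call of the lead probe set was lost after quantile normalization (0.77, adjusted p = 0.0757), after centring each array on its median (0.68, adjusted p = 0.0698), without vehicle overload replicate 2 (1.21, adjusted p = 0.0697) and without the vehicle or the tamoxifen sham array (1.13, adjusted p = 0.0534, and 0.96, adjusted p = 0.143).

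Angpt1, the stabilising angiopoietin, was not called. It read 1065, 845 and 1043 with tamoxifen overload and 1018 and 680 with vehicle overload, against 775 with tamoxifen sham and 755 with vehicle sham, so that the groups overlapped. The log2 difference was 0.10 (95% interval -0.31 to 0.52). Its second probe set (1421441_at) did not overlap, at 299 to 393 in overload and 192 and 286 in the sham muscles, and came to 0.45 ± 0.20 without passing (adjusted p = 0.176 when every probe set was tested).

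The angiopoietin receptor Tek read 1103, 993 and 933 with tamoxifen overload and 1035 and 782 with vehicle overload, against 1304 with tamoxifen sham and 812 with vehicle sham. The sham arrays differed more from each other than the overload arrays did, and the difference of -0.15 (95% interval -0.55 to 0.26) did not pass. Tie1 read 363, 404 and 339 with tamoxifen overload and 375 and 190 with vehicle overload, against 235 with tamoxifen sham and 218 with vehicle sham. All overload arrays but vehicle replicate 2 lay above both sham arrays. The difference was 0.33 (95% interval -0.33 to 1.00, adjusted p = 0.468), and without that array 0.83 (adjusted p = 0.122).

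The junction proteins differed from each other in pattern. Pecam1 read 1554, 1911 and 1803 with tamoxifen overload and 2170 and 1340 with vehicle overload, against 1286 with tamoxifen sham and 1031 with vehicle sham. The overload arrays lay above both sham arrays, vehicle replicate 2 only just, and the log2 difference of 0.44 ± 0.18 did not pass (adjusted p = 0.128). Cdh5 read 745, 1211 and 936 with tamoxifen overload and 1223 and 504 with vehicle overload, against 700 with tamoxifen sham and 875 with vehicle sham. The overload arrays spread on either side of the sham arrays, with a difference of -0.08 (95% interval -0.81 to 0.64). Without vehicle overload replicate 2 the difference of Cdh5 was 0.47. Its second probe set (1422047_at) gave -0.19 and also overlapped. With every array centred on its own median, the median over all genes was -0.30, against 0.07 as reported. Relative to that scale Pecam1 stood at 0.08 and Tie1 and Angpt1 at -0.03 and -0.26, whereas Vegfa, Vegfb, Flt1 and Kdr kept their calls.

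**Figure D1:**
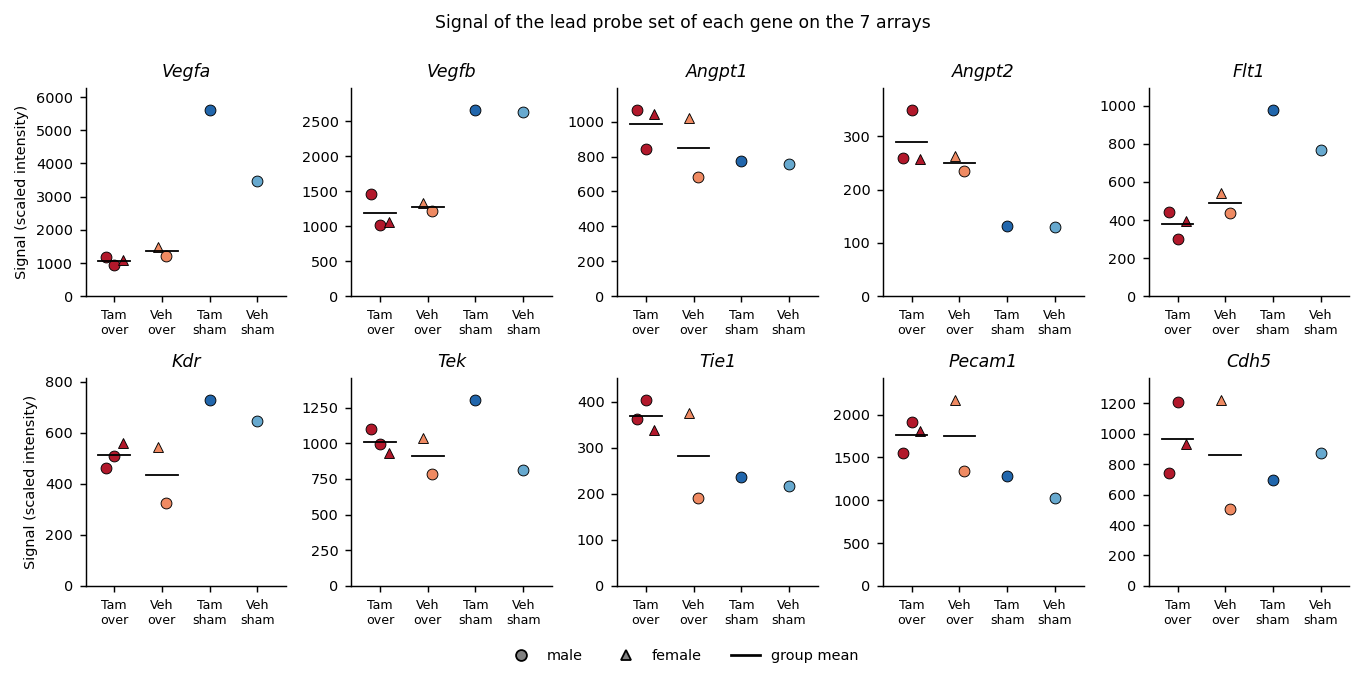
Signal (scaled intensity, linear axis from 0) of the lead probe set of each gene, with 1 point for each array in 4 groups (tamoxifen overload, vehicle overload, tamoxifen sham, vehicle sham), circles for males and triangles for females, and a line at the mean of groups with more than 1 array. Vegfa, Vegfb, Flt1 and Kdr are lower and Angpt2 and Pecam1 higher on every overload array than on both sham arrays.

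**Figure D2:**
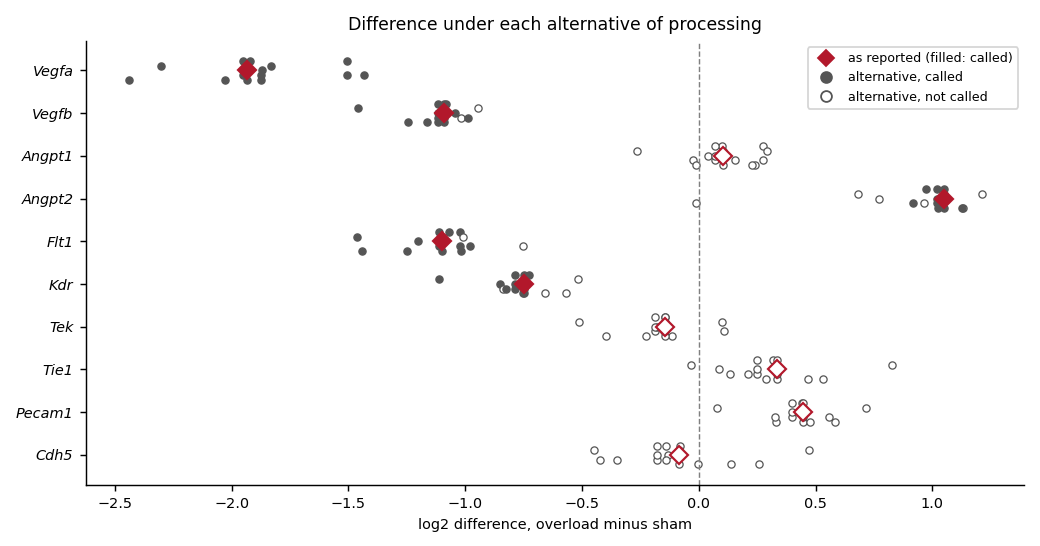
Log2 difference between overload and sham for each gene as reported (diamond) and under each alternative of processing (circles), filled where the adjusted p is under 0.05. Vegfa is called in all of the alternatives drawn except the one without the intensity trend, and the single Angpt2 value near 0 averages in the probe set that lies below background.

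Overload was then compared with sham within each treatment, each against a single sham array that was assumed to vary like the overload arrays. With tamoxifen 3 of the 10 genes fell, where 4.9% of all genes were called lower and 9.98% higher (14.9% in all). Vegfa was 5.43-fold lower (-2.44 ± 0.20, adjusted p = 0.000708), Flt1 2.72-fold lower (-1.44 ± 0.27, adjusted p = 0.0118) and Vegfb 2.24-fold lower (-1.16 ± 0.24, adjusted p = 0.0171). Angpt2 came to 1.13 ± 0.33 (adjusted p = 0.0556) and passed without tamoxifen overload replicate 1 (1.25, adjusted p = 0.0402). It also passed without the sex term (1.11), among genes above background alone (1.13) and with the mean of probe sets above background (1.13). With vehicle 1 of the 10 fell, where 2.44% of all genes were called lower and 6.35% higher (8.79% in all). It was Vegfa, 2.70-fold lower (-1.43 ± 0.22, adjusted p = 0.00830), which lost its call without vehicle overload replicate 2 (-1.26, adjusted p = 0.126) and with the mean of its probe sets (-1.12, adjusted p = 0.0653). Flt1 depended on the probe set. Its lead probe set came to -0.75 with vehicle (adjusted p = 0.167), whereas the other 3 gave -1.02, -0.87 and -0.67 with tamoxifen and -1.22, -1.26 and -0.93 with vehicle. When every probe set was tested, 1451756_at passed with vehicle (adjusted p = 0.0307) and not with tamoxifen (adjusted p = 0.0527). Vegfb missed the threshold with vehicle (-1.02 ± 0.26, adjusted p = 0.0528) and passed without tamoxifen overload replicate 1 (-1.10, adjusted p = 0.00309). It also passed without the sex term (-1.05), with median centring (-1.38) and among genes above background alone (-1.02).

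The difference between the responses with tamoxifen and with vehicle was tested as an interaction, and none of the 10 genes passed, as did none of all 18193 genes (0% called; 1021 had an unadjusted p under 0.05). Vegfa was the single gene of the 10 with an unadjusted p under 0.05. Its response was more negative with tamoxifen by 1.01 on the log2 scale (95% interval of the difference -1.66 to -0.36, adjusted p = 0.745). It combines the gap between the overload groups with the gap between the sham arrays, of which there is 1 for each treatment. Vegfa was 1.62-fold higher on the tamoxifen than on the vehicle sham array, and Tek 1.60-fold. Gaps larger than that of Vegfa were found for 14.1% of the 13044 genes above background on either sham array. The other 8 genes differed by 1.27-fold or less between the sham arrays. With 1 array a side, these differences have no test.

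Tamoxifen, given to deplete satellite cells, was compared with vehicle under overload in 3 tamoxifen and 2 vehicle arrays. No group received tamoxifen without carrying the toxin, so effects of the drug and of cell loss cannot be told apart. None of the 10 genes was called, and none of all genes (0% called, 1932 with an unadjusted p under 0.05, none of them among the 10). Vegfa read 949 to 1175 with tamoxifen and 1221 to 1494 with vehicle. It was the single gene of the 10 whose lead probe set did not overlap, where 12.6% of all genes lay wholly lower and 16.9% wholly higher with tamoxifen. Its difference was -0.31 (95% interval -0.67 to 0.04). The other Vegfa probe set (1451959_a_at) overlapped, at 374 to 573 with tamoxifen and 406 to 664 with vehicle, and gave -0.16. The widest positive difference was that of Tie1, at 0.51 (-0.15 to 1.18). Flt1 stood at -0.34 (-0.82 to 0.14), Kdr at 0.35 (-0.09 to 0.79), Angpt2 at 0.19 (-0.40 to 0.78) and Pecam1 at 0.09 (-0.33 to 0.52). Every one of these intervals includes 0. Without vehicle overload replicate 2 Tie1 turned to -0.15 and Pecam1 to -0.27, and Kdr came to 0.04. Cdh5 turned from 0.36 to -0.38. Of the 22 other endothelial markers none was called, although all 22 had positive values (median 0.32), which came to 10 of 22 (median -0.04) without vehicle overload replicate 2.

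**Figure D3:**
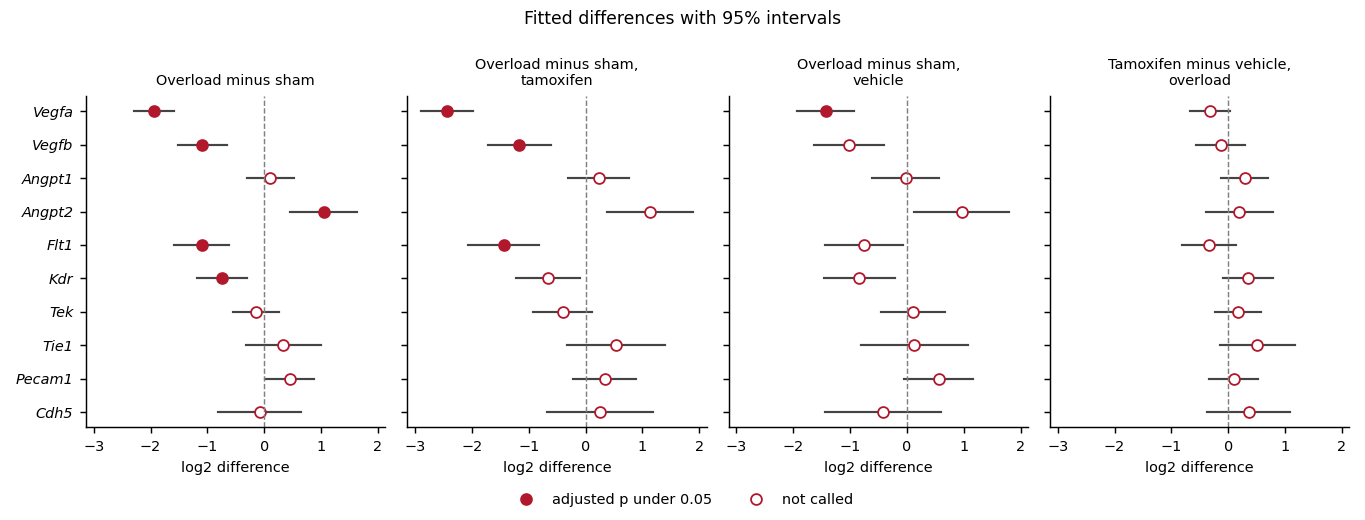
Fitted log2 differences of the 10 genes with 95% intervals (bars), in panels for overload minus sham over both treatments, with tamoxifen and with vehicle, and for tamoxifen minus vehicle in overload. Filled points passed at an adjusted p under 0.05. In the last panel no gene passed and every interval includes 0.

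The other genes of these pathways were taken from lists of 17 groups, and all differences that follow are of overload against sham. Each count of a list stands beside 14.7% of all genes called higher and 8.16% called lower in that comparison. A list of 10 further genes held VEGF ligands, receptors and co-receptors, and also semaphorins and a semaphorin receptor. Of this list 4 rose and none fell (median 0.34, against 0.07 over all genes). Sema3f, a semaphorin that binds the co-receptor Nrp2, rose by 1.71 ± 0.26, Nrp2 by 0.95 ± 0.28, Vegfd, which in mice binds the lymphatic receptor Flt4 and not Kdr, by 0.83 ± 0.24, and Plxnd1, a semaphorin receptor, by 0.63 ± 0.15. Vegfc stood at -0.05, the placental growth factor Pgf at 0.30 and Flt4 at -0.28, none of them called. The value of Pgf averages unlike arrays. Pgf read 141 to 216 with tamoxifen overload and 154 and 18.1 with vehicle overload, against 22.7 with tamoxifen sham and 123 with vehicle sham. The count was 0 without the tamoxifen sham array, 1 without the vehicle sham array or vehicle overload replicate 2, and 2 after quantile normalization or with a pseudocount of 16. After median centring it was 1, with a median of -0.02. No other VEGF ligand on the list was called lower.

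Of 9 other genes listed with the angiopoietin and Tie axis, angiopoietin-like proteins included, 3 rose and 1 fell. The angiopoietin-like proteins Angptl4, an inhibitor of lipoprotein lipase, and Angptl1 rose by 2.43 ± 0.25 and 2.35 ± 0.19, and the matrix protein Svep1 by 0.91. Angptl6 fell by 0.85 on the log2 scale. Without the tamoxifen sham array 2 were higher and 0 lower, and after median centring 2 were higher and 2 lower. Angptl4 read 1139, 1956 and 725 with tamoxifen overload and 381 and 584 with vehicle overload, against 189 with tamoxifen sham and 164 with vehicle sham.

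Of 16 apelin, tip cell and sprouting genes 4 rose and none fell (median 0.49). The apelin receptor Aplnr, which marks venous and sprouting endothelium, read 8493, 8549 and 8209 with tamoxifen overload and 5202 and 4476 with vehicle overload, against 1633 with tamoxifen sham and 781 with vehicle sham. The groups were far apart, and Aplnr was 5.54-fold higher (2.47 ± 0.14, adjusted p = 5.63e-05). Its ligand Apln rose by 1.07 ± 0.32 and the Notch ligand Jag1 by 0.57 ± 0.16. Cxcr4, a chemokine receptor of tip cells that immune and muscle precursor cells carry too, rose by 2.50 ± 0.33. The Notch ligand Dll4, which Vegfa induces in tip cells, stood at -0.52 and was not called, while 15 of the 16 had positive values. Dll4 read 129 to 230 in overload, a range that holds the 167 of tamoxifen sham, against 266 with vehicle sham. The count was 2 without the tamoxifen sham array, without tamoxifen overload replicate 2, after quantile normalization or with averaged probe sets, and 7 without the sex term. After median centring 2 were higher and 1 lower, with a median of 0.13.

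Of the 22 other endothelial markers 7 rose and none fell, with a median of 0.31. Plvap, the diaphragm protein of fenestrated and activated endothelium, rose by 1.49 ± 0.17, Clec14a by 1.08, Ecscr by 0.86 and Cd34 by 0.81. Cd34 is carried by connective tissue progenitors as well. After median centring the median turned to -0.06, with 2 higher and 2 lower, and after quantile normalization 4 rose. Without the tamoxifen sham array 2 were called and the median was 0.18, and without vehicle overload replicate 2 there were 4, with a median of 0.59. Of 9 arterial, venous and lymphatic genes 2 rose, Pdpn by 1.89 and the venous marker Ackr1 by 1.15. Pdpn marks lymphatic vessels but also fibroblasts, and Lyve1, another lymphatic marker, was not called (-0.51). The count was 1 without the tamoxifen sham array (median 0.24, against 0.71), when vehicle overload replicate 2 was dropped or after quantile normalization, and 4 without the sex term. Of 12 pericyte and smooth muscle genes 2 rose (Pdgfrb by 1.02, Acta2 by 0.88) and none fell. The rises were near the share of all genes called higher (14.7%). The median of the 12 was 0.07. This median was 0.50 without vehicle overload replicate 2. It turned to -0.30 after median centring, when 1 was higher and 4 lower. Without the sex term or among genes above background alone 2 were higher and 2 lower, and without either sham array 1 was called. The pericyte gene Rgs5 read 10567 to 13932 in overload and 15004 and 16136 in the sham muscles.

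A list of capillary lipid handling and other muscle endothelial genes went the other way. Of its 11 genes 5 fell and 2 rose (median -0.47, and -0.19 without vehicle overload replicate 2). Timp4, an inhibitor of matrix proteases, fell by 2.57 on the log2 scale, the capillary carbonic anhydrase Car4 by 1.59 and the lipoprotein lipase Lpl by 1.24, while the chemokine Cxcl12 rose by 1.29. Lpl is made by muscle fibres and fat cells and acts on the capillary wall, where its anchor Gpihbp1 was not called (-0.47). Without the tamoxifen sham array 3 of the 11 were called, 0 higher and 3 lower.

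Of 17 genes of the hypoxia response, the pathway best known for inducing Vegfa, 1 rose and 5 fell (median -0.03). Hif1a, the oxygen-sensitive transcription factor, was 2.83-fold higher (adjusted p = 0.00196), whereas its relative Epas1, abundant in endothelium, fell by 0.69 on the log2 scale. The regulatory glycolytic enzyme Pfkfb3 fell by 2.49, the prolyl hydroxylase Egln1, which marks Hif1a for destruction, by 1.66, and Bnip3 by 0.82. The glucose transporter Slc2a1 stood at 0.03 and Egln3 at -0.17, neither called. Without the tamoxifen sham array 1 was higher and 2 lower, and after median centring the median was -0.40. Of 13 Pgc-1 and oxidative metabolism genes 10 fell and none rose (median -0.77). Ppargc1a (Pgc-1 alpha), a coactivator known to induce Vegfa in muscle, read 483, 407 and 550 with tamoxifen overload and 967 and 604 with vehicle overload, against 1654 with tamoxifen sham and 1199 with vehicle sham. It fell by 1.42 ± 0.17 on the log2 scale, Ppara by 1.56 and its partner receptor Esrra by 1.18. The count was 3 without the tamoxifen sham array and 5 without vehicle overload replicate 2. Vegfb is known to be expressed with mitochondrial genes, of which Idh2 and Cox7a1 fell by 1.45 and 1.32.

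Other regulators of vessel growth changed in both directions. Of 14 listed inhibitors of angiogenesis 6 rose and 2 fell (median 0.66). Thbs2, a secreted thrombospondin, rose by 2.46 ± 0.22, Col18a1, the source of endostatin, by 2.31 ± 0.23, and Sparc, a matrix protein that binds growth factors, by 1.63. Cxcl10 was also called higher, from a sham mean below background. Without the tamoxifen sham array 4 inhibitors were higher and 1 lower, and after median centring the median was 0.30. Of 16 other angiogenic growth factors and receptors 6 rose and 3 fell (median 0.47). Ptn (pleiotrophin) rose by 4.33 ± 0.23, Igf1 by 2.31, Mdk (midkine) by 2.26 and Tgfb1 by 2.01, while Fgf1 fell by 0.99 on the log2 scale. Without the tamoxifen sham array 4 growth factors and receptors were higher and 0 lower, and without vehicle overload replicate 2 there were 5 higher and 0 lower. After median centring 5 were higher and 4 lower, with a median of 0.11.

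**Figure D4:**
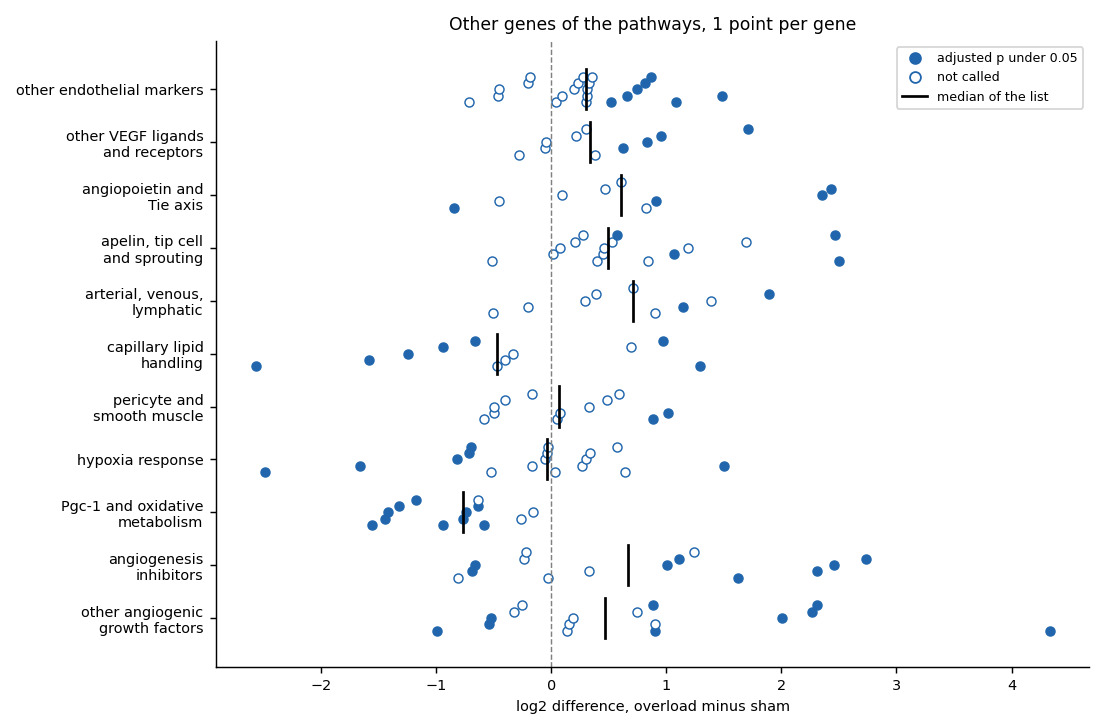
Log2 difference between overload and sham for each gene (points, filled where the adjusted p is under 0.05) of 11 lists of related genes, with a bar at the median of each list. The lists of oxidative metabolism and of capillary lipid handling and muscle endothelial genes lie mostly below 0. The growth factor, inhibitor and sprouting lists lie mostly above it, and the other endothelial markers around a median of 0.31.

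Markers of other cell types were examined in the same comparison. Of 11 macrophage markers 10 rose (median 2.08), and their mean log2 level was 10.00 to 10.61 with tamoxifen overload and 9.81 and 9.93 with vehicle overload, against 8.18 with tamoxifen sham and 7.03 with vehicle sham. Of 9 fibroblast markers 8 rose (median 2.08), with mean levels of 13.15 to 13.32 and 12.91 to 13.17 in the same overload groups, against 11.45 and 11.01 in the sham groups. Of 9 muscle fibre markers none was called, but all 9 had negative values (median -0.32), of 7 proliferation genes 6 rose, and of 6 satellite cell genes 2 rose. Platelet genes, which matter because platelets carry Pecam1 and angiopoietins, were not called (0 of 4). The satellite cell count was 1 when vehicle overload replicate 2 or the tamoxifen sham array was dropped. Of the fibre markers 1 was called lower without tamoxifen overload replicate 1 or among genes above background alone, and 2 with averaged probe sets. The platelet count was 2 without that array, and 1 after median centring or among genes above background alone. Several other alternatives also gave a platelet call. The mean level of the 22 endothelial markers was 10.06 to 10.26 with tamoxifen overload and 10.12 and 9.56 with vehicle overload, against 9.70 with tamoxifen sham and 9.51 with vehicle sham. The part of these cell types in the values of the 10 genes was not tested.

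Over the 7 arrays, which fall into overload and sham, the genes whose log2 levels ran most closely with each gene were named as a description, from 12492 genes above background on average. For Vegfa the closest was Jmy (Pearson r = 0.994), for Vegfb Hpn (0.997), for Flt1 Akap1 (0.996), for Angpt2 Arhgap18 (0.997), for Pecam1 Rhoj (0.990) and for Cdh5 Adamtsl2 (0.960).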

How the data were processed

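Per the labels' protocols, 1 µg of muscle RNA was used for each Affymetrix array. The values deposited by the authors are intensities on a linear scale. The submitters' processing notes name Partek. The sources used here do not give the method of summarising probe sets. The mean of 45101 probe sets trimmed by 2% at each end is 500.0 on every array, so each array was scaled as a whole, which cannot show a change in total RNA.

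The analysis used log2(value + 1). For each of 18193 genes with a single symbol (34945 probe sets) the brightest probe set on average was kept. A linear model with 4 group terms and a sex term was fitted to all 7 arrays with limma 3.58.1 in R 4.3.3, with variances moderated along an intensity trend (2 residual and 5.95 prior degrees of freedom), and tested two-sided with Benjamini-Hochberg adjustment. SE and intervals are limma's moderated ones. Both female arrays are overload arrays, and since titles that name single mice stand beside a design text that speaks of a pooled sample, p-values measure the spread between these arrays, which may be partly technical. The background level (54.2) was set at the 95th percentile of 76 olfactory, vomeronasal and taste receptor genes. Of 200 list entries 195 were measured. The 10 genes, the lists and the alternatives were chosen with earlier results of these data known. The text names all 10 genes, up to 4 called genes of a list with the largest differences, and further list genes chosen after their values were seen. Motifs were searched in RefSeq promoters, which the table holds for 6 of the 10 genes. The fit was tested on simulated data. Python 3.11.15 with matplotlib 3.10.9 drew the figures.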

Additional observations from a re-analysis of the deposited data

How the results depend on the processing

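The fit was repeated with quantile normalization, median centring, a pseudocount of 16, no sex term, no intensity trend, male arrays alone, genes above background alone, probe sets averaged per gene, every probe set tested, and each array left out. The mean of probe sets above background was added after seeing the data. Of the 10 genes 5 were called for overload against sham, and 4 to 5 in all alternatives but those that follow. The count was 0 without the intensity trend (all genes 0, against 4163), and 1 to 5 when an array was left out, with 1 (all genes 1613) when the tamoxifen sham array and 1 (1924) when vehicle overload replicate 2 was dropped, and 3 (2680) for the vehicle sham array. Within vehicle, where 1 was called, the count was 2 without the sex term, 3 with median centring, 2 among genes above background alone, 0 with the mean of probe sets, 0 with the mean of probe sets above background, 0 without the trend, and 0 to 2 with an array left out. Within tamoxifen 3 were called, 0 without the trend, and 3 to 4 otherwise. Over all genes the 1599 calls within vehicle came to 954 with quantile normalization, 1051 with averaged probe sets, 1024 in males, 371 when vehicle overload replicate 2 and 2499 when tamoxifen overload replicate 1 was dropped, and 0 without the trend, and the 2706 within tamoxifen to 0 without the trend. In the comparison of tamoxifen with vehicle under overload, and in the interaction, 0 of the 10 were called in every alternative. Over all genes 227 and 12 were called there without tamoxifen overload replicate 1. Averaging both probe sets of Angpt2, of which 1 lies below background, gave -0.012 (adjusted p = 0.992) for overload against sham. The median difference between the sham arrays over the 10 genes (0.14) ranged from 0.00 to 0.14. A sham array left out leaves the comparison to the other treatment, and dropping either female array leaves in effect the males. No paired analysis was possible because the replicate numbers of the groups do not pair arrays. Signal over background did not limit the 10 genes, but the single sham arrays limit every comparison with sham.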
